A study of Homo sapiens with 9 samples.

Results

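Genes of the basic leucine zipper (bZIP) transcription factors were followed in the neuroblastoma line SMS-KCNR, an established line of human tumour cells from the sympathetic nervous lineage. All cells were collected at 30 hours, and every group holds 3 arrays. One group received simvastatin (5 µM) together with mevalonate (2 mM), the next the same dose of simvastatin alone, and the last only the solvent DMSO. Simvastatin blocks the enzyme that makes mevalonate, so adding mevalonate returns the product the drug withholds. Samples of a group are described as independent, though whether they were separate cultures is left unsaid, so p-values measure the spread between these samples, which may be partly technical, and all of it comes from 1 cell line.

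Members were the gene symbols of the array's probe annotation that match a pattern of bZIP names, with the probeset of the highest mean taken for each gene. The pattern found 36 of the 14884 named genes. MAF1 entered by its letters alone, since it encodes a repressor of RNA polymerase III without a leucine zipper, and is given apart, which left 35 bZIP genes on 37 probesets. They comprise 8 genes of the AP-1 group, 15 of the CREB/ATF group, 1 of the C/EBP group, 8 of the MAF and CNC group and 3 of the PAR group. A further 16 genes of these families, among them CEBPA, CEBPB, CEBPD, CEBPE, CEBPG, BACH1, BACH2, ATF1 and NFIL3, are not analysed here, so the C/EBP group rests on DDIT3.

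A bZIP factor grips DNA with a basic stretch and pairs with another bZIP factor through a zipper of leucines, and the partner sets which DNA site the pair prefers. AP-1 is the pair of a JUN protein with a FOS, ATF or second JUN protein and answers growth and stress kinases. CREB answers cyclic AMP and calcium, ATF4 and its partners answer amino acid shortage, XBP1 and ATF6 answer unfolded proteins in the endoplasmic reticulum, NRF2 (NFE2L2) with a small MAF answers oxidants, and the PAR factors follow the daily clock. Many of these proteins are switched on by cleavage, splicing, translation or phosphorylation, none of which an array of RNA levels measures.

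With simvastatin alone, bZIP genes were mostly higher than with DMSO, led by CREB5, JUND, XBP1, ATF5 and JUN. With mevalonate added to simvastatin these genes were lower than with simvastatin alone. Against DMSO, 13 of the 35 genes rose with simvastatin and 4 fell (limma, adjusted p under 0.05 over all 14884 genes). That is 48.6% of the bZIP genes, 37.1% upward and 11.4% downward, against 13.4% of all genes, 5.98% upward and 7.38% downward. With mevalonate added, 3 bZIP genes rose and 14 fell against simvastatin alone, 48.6% of them, where 11% of all genes were called, 5.31% upward and 5.72% downward. The median absolute log2 change of the bZIP genes was 0.22 against DMSO and 0.22 with mevalonate added, and 0.10 and 0.09 over all genes. These comparisons share the simvastatin arrays, so their values are set side by side and one is no independent check of the other.

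Simvastatin and DMSO arrays did not overlap for 20 of the 35 genes, where 28.6% of all genes do not overlap. Mevalonate-treated and simvastatin arrays did not overlap for 20 genes as well, where the share over all genes is 27.3%. Of the 17 genes called against DMSO, 13 were called under each of the 17 alternative settings, 10 of them higher and 3 lower. Of the 17 called with mevalonate added, 12 were, all lower. The genes whose calls depended on a setting are named where they are described, and a numbered mevalonate replicate there is an array of simvastatin plus mevalonate. Most of those passages name only arrays left out, while their ranges of adjusted p cover all alternatives. Adjustment over all probesets also ended the calls of DBP and CREM in both comparisons. With mevalonate added it ended those of CREB1, ATF6B and FOSL2. Fitting only the groups compared, and the replicate block, each ended most of these calls. Median centring ended the rises of ATF6B and DBP.

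**Figure D1:**
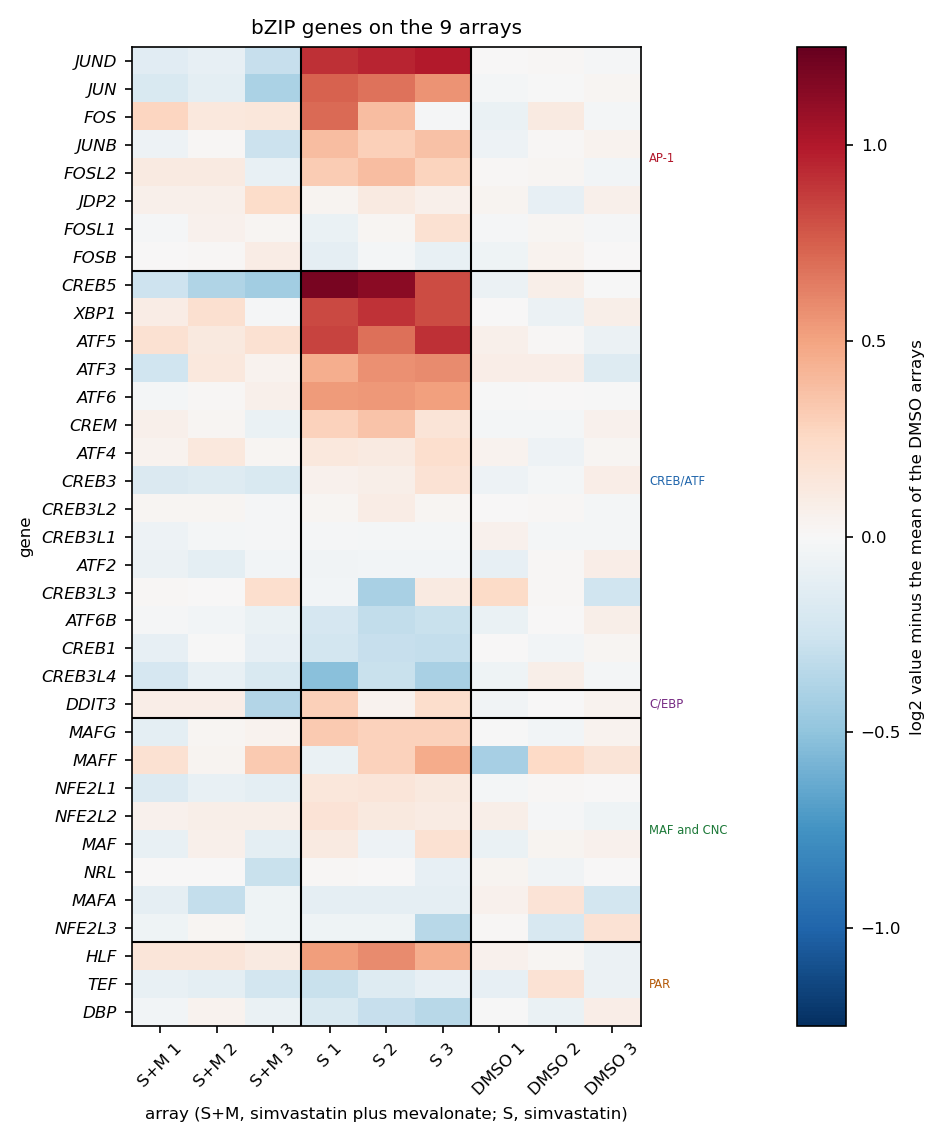
Log2 value of each of the 35 bZIP genes on each of the 9 arrays, minus the mean of the 3 DMSO arrays, on a colour scale from blue (lower) to red (higher). Rows are genes ordered by group and by their change with simvastatin, and columns are arrays with mevalonate plus simvastatin (S+M), with simvastatin (S) and with DMSO. The 3 simvastatin columns stand out in red for JUND, JUN, CREB5, XBP1, ATF5, ATF3, ATF6 and HLF.

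All JUN genes of the AP-1 group rose with simvastatin and fell with mevalonate added. JUND, the JUN protein found in most resting cells, had log2 values of 7.75, 7.79 and 7.61 with simvastatin plus mevalonate, 8.80, 8.85 and 8.88 with simvastatin, and 7.90, 7.91 and 7.88 with DMSO. Its 3 simvastatin arrays lay above every other array, and the mevalonate arrays lay below all DMSO arrays. JUND was 1.93-fold higher with simvastatin than with DMSO (log2 change 0.95 ± 0.05 SE, adjusted p = 2.34e-05) and 2.18-fold lower with mevalonate added than with simvastatin (-1.13 ± 0.05, adjusted p = 1.43e-05).

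JUN, the first known member of AP-1 and a target of the JNK kinases, had log2 values of 6.45, 6.52 and 6.24 with simvastatin plus mevalonate, 7.38, 7.32 and 7.20 with simvastatin, and 6.61, 6.64 and 6.67 with DMSO. As with JUND, the groups were separate, with the mevalonate arrays lowest. JUN was 1.58-fold higher with simvastatin than with DMSO (0.66 ± 0.08, adjusted p = 0.000734) and 1.86-fold lower with mevalonate added (-0.90 ± 0.08, adjusted p = 0.000197). JUNB, a JUN protein induced early by growth factors, had 8.22, 8.30 and 8.02 with simvastatin plus mevalonate, 8.67, 8.58 and 8.66 with simvastatin, and 8.22, 8.30 and 8.33 with DMSO. Its simvastatin arrays were the highest, and the other groups overlapped. JUNB rose by 0.35 ± 0.07 against DMSO (adjusted p = 0.0150) and fell by 0.46 ± 0.07 with mevalonate added (adjusted p = 0.00503). The rise of JUNB was not called without DMSO replicate 1 (adjusted p = 0.0556, the highest over its alternatives, which reached down to 0.00288).

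The promoters of JUND and JUN are shown because both genes carry a known type of bZIP site and moved together. The windows are the 250 bases before the RefSeq start site (GRCh38.p14), and capitals mark the cyclic AMP response element TGACGTCA in JUND, at chr19:18281623-18281872 on the minus strand, and the JUN-type AP-1 site TGACATCA in JUN, at chr1:58784048-58784297 on the minus strand.
JUND: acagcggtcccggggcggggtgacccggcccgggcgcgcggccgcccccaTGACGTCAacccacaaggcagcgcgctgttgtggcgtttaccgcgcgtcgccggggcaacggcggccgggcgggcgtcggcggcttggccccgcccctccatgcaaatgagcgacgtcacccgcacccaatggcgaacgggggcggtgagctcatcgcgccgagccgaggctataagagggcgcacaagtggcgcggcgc
JUN: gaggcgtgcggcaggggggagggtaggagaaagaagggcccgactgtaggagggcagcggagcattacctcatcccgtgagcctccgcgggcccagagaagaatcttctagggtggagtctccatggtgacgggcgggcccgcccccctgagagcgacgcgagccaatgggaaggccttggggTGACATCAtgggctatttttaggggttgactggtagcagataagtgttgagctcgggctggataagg
The JUND element lies 200 to 193 bases and the JUN site 67 to 60 bases upstream of the start. Whether these sites take part in the changes was not tested.

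FOS genes encode partners of JUN. Of the 4 FOS genes, FOSL2 was called. FOSL2 had log2 values of 7.49, 7.49 and 7.28 with simvastatin plus mevalonate, 7.69, 7.76 and 7.65 with simvastatin, and 7.38, 7.40 and 7.34 with DMSO. Its simvastatin arrays were the highest, and the other groups overlapped. FOSL2 rose by 0.33 ± 0.06 against DMSO (adjusted p = 0.0104) and fell by 0.28 ± 0.06 with mevalonate added (adjusted p = 0.0231). The fall was not called without simvastatin replicate 1 (adjusted p = 0.0551) or 2 (0.0748), within a range of 0.00739 to 0.0748 over the alternatives.

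FOS itself, the classical immediate early gene, had 5.96, 5.83 and 5.83 with simvastatin plus mevalonate, 6.40, 6.08 and 5.68 with simvastatin, and 5.61, 5.81 and 5.67 with DMSO. The simvastatin arrays were spread over the widest range of any group for FOS, and replicate 3 lay at the DMSO level. Its log2 change against DMSO was 0.36 ± 0.16 (adjusted p = 0.193), which became 0.54 (adjusted p = 0.0175, within 0.0175 to 0.398 over its alternatives) without simvastatin replicate 3. FOSB (-0.08 ± 0.05 against DMSO, adjusted p = 0.378) and FOSL1 (0.04 ± 0.07, adjusted p = 0.736), which form AP-1 with JUN, were not called, and neither was JDP2, a bZIP repressor of AP-1 (0.07 ± 0.06, adjusted p = 0.543). FOS and FOSB each had a second probeset, with log2 changes against DMSO of 0.13 for FOS and 0.16 for FOSB, neither of them called.

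Among the CREB/ATF genes 6 rose and 3 fell with simvastatin, and with mevalonate added 7 fell and 2 rose. CREB5, a CREB-like factor that pairs with JUN, moved most of all bZIP genes. It had log2 values of 6.74, 6.63 and 6.57 with simvastatin plus mevalonate, 8.19, 8.13 and 7.82 with simvastatin, and 6.93, 7.07 and 7.00 with DMSO. The 3 groups were separate, with the mevalonate arrays lowest. CREB5 was 2.06-fold higher with simvastatin than with DMSO (1.05 ± 0.10, adjusted p = 0.000258) and 2.64-fold lower with mevalonate added than with simvastatin (-1.40 ± 0.10, adjusted p = 7.78e-05). It was the only bZIP gene called at 2-fold or more against DMSO, and CREB5 and JUND were those called at that size with mevalonate added.

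XBP1, a driver of the unfolded protein response, had log2 values of 8.24, 8.35 and 8.14 with simvastatin plus mevalonate, 8.97, 9.05 and 8.96 with simvastatin, and 8.15, 8.08 and 8.22 with DMSO. The simvastatin arrays were the highest and the other groups overlapped. XBP1 was 1.80-fold higher with simvastatin than with DMSO (0.85 ± 0.06, adjusted p = 9.04e-05) and 1.69-fold lower with mevalonate added (-0.75 ± 0.06, adjusted p = 0.000206). The single probeset does not tell spliced from unspliced XBP1 RNA. ATF6, the membrane-bound factor that is cut free under endoplasmic reticulum stress, had 9.45, 9.48 and 9.53 with simvastatin plus mevalonate, 10.00, 10.01 and 9.98 with simvastatin, and 9.47, 9.48 and 9.46 with DMSO. Replicates of ATF6 varied little, and the simvastatin arrays stood apart. ATF6 rose by 0.53 ± 0.04 against DMSO (adjusted p = 7.43e-05) and fell by 0.51 ± 0.04 with mevalonate added (adjusted p = 0.000115).

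ATF5, a factor of the amino acid and mitochondrial stress responses, had log2 values of 6.84, 6.78 and 6.85 with simvastatin plus mevalonate, 7.50, 7.35 and 7.57 with simvastatin, and 6.72, 6.67 and 6.58 with DMSO. The groups did not overlap, and the mevalonate arrays stood just above the DMSO arrays. ATF5 was 1.76-fold higher with simvastatin than with DMSO (0.82 ± 0.06, adjusted p = 0.000109) and 1.57-fold lower with mevalonate added (-0.65 ± 0.06, adjusted p = 0.000434). ATF3, induced by many stresses downstream of ATF4, had 5.50, 5.88 and 5.79 with simvastatin plus mevalonate, 6.20, 6.31 and 6.34 with simvastatin, and 5.82, 5.83 and 5.58 with DMSO. Its simvastatin arrays were the highest, with overlap between the other groups. ATF3 rose by 0.54 ± 0.11 against DMSO (adjusted p = 0.0120) and fell by 0.56 ± 0.11 with mevalonate added (adjusted p = 0.0117).

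ATF4, which is controlled mainly at the level of translation, had log2 values of 10.10, 10.20 and 10.09 with simvastatin plus mevalonate, 10.19, 10.17 and 10.27 with simvastatin, and 10.10, 10.00 and 10.08 with DMSO. The simvastatin arrays lay above the DMSO arrays by a small margin. The log2 change of ATF4 against DMSO was 0.15 ± 0.05 (95% interval 0.04 to 0.27, adjusted p = 0.0948), and it passed the threshold with an intensity trend in limma's variance model (adjusted p = 0.0198, within 0.0198 to 0.244 over its alternatives).

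The windows before CREB5, ATF3 and XBP1 are shown because these members of the CREB/ATF group rose and hold sites that bZIP factors are known to bind. Each is the first window of its gene with a marked site. Which start site these cells use, and whether the sites take part in the rises, was not tested. Capitals in CREB5 (chr7:28685883-28686132, plus strand, one of several RefSeq start sites) mark a composite site of C/EBP and ATF factors, searched as TGATGNAA on both strands, and downstream of it the AP-1 site TGACTCA. Capitals in ATF3 (chr1:212565157-212565406, plus strand) mark the composite site and the JUN-type AP-1 site, and in XBP1 (chr22:28800570-28800819, minus strand) the endoplasmic reticulum stress element, a CCAAT box and a CCACG box at a fixed spacing.
CREB5: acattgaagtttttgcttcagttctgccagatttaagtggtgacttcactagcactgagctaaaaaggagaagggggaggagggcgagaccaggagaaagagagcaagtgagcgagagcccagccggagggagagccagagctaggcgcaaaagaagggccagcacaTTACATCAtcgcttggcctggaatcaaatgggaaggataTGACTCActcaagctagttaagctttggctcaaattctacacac
ATF3: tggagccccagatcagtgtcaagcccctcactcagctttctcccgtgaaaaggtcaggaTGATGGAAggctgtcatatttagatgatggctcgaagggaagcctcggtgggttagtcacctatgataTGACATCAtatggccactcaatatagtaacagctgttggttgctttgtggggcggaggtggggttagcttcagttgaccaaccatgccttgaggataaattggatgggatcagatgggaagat
XBP1: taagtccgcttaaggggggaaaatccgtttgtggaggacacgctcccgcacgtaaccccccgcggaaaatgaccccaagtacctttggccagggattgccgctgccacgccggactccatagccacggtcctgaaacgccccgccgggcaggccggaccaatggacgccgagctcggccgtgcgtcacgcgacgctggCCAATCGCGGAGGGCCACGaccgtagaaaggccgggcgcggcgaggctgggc

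Several CREB/ATF genes moved the other way. CREB3L4, a membrane-bound relative of CREB, had log2 values of 6.65, 6.76 and 6.67 with simvastatin plus mevalonate, 6.33, 6.58 and 6.45 with simvastatin, and 6.81, 6.93 and 6.84 with DMSO. The simvastatin arrays were the lowest and the mevalonate arrays lay between. CREB3L4 fell by 0.40 ± 0.07 against DMSO (adjusted p = 0.00601), and its log2 change with mevalonate added was 0.24 ± 0.07 (adjusted p = 0.0658), which was called under 4 of its 17 alternatives. These were leaving out simvastatin replicate 2 (0.30, adjusted p = 0.0297), the replicate block (0.0295), the filter on dim genes (0.0340) and the intensity trend (0.0433), and the adjusted p reached 0.183 over the alternatives. CREB1, the cyclic AMP response element binding protein, fell by 0.27 ± 0.04 against DMSO (adjusted p = 0.00484) and rose by 0.20 ± 0.04 with mevalonate added (adjusted p = 0.0233). ATF6B, a paralogue of ATF6, fell by 0.27 ± 0.05 (adjusted p = 0.0105) and rose by 0.22 ± 0.05 with mevalonate added (adjusted p = 0.0278). The rises of CREB1 and ATF6B with mevalonate were not called without simvastatin replicate 2 or 3 or mevalonate replicate 2 or 3, that of ATF6B also not without mevalonate replicate 1, with adjusted p over all alternatives from 0.0032 to 0.0895 for CREB1 and from 0.0048 to 0.0949 for ATF6B.

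CREM, a CREB relative with repressor isoforms, rose by 0.27 ± 0.06 against DMSO (adjusted p = 0.0229) and fell by 0.27 ± 0.06 with mevalonate added (adjusted p = 0.0273). Its rise was lost when replicate 1 or 2 of DMSO or of simvastatin was left out (adjusted p from 0.0106 to 0.0755 over the alternatives). Its fall was lost without simvastatin replicate 1 or 2 or mevalonate replicate 2 or 3 (adjusted p from 0.0126 to 0.0928 over the alternatives). CREB3, a membrane-bound factor of the endoplasmic reticulum and Golgi, had 7.51, 7.53 and 7.51 with simvastatin plus mevalonate, 7.75, 7.77 and 7.87 with simvastatin, and 7.63, 7.67 and 7.78 with DMSO. The simvastatin and DMSO arrays overlapped, and the mevalonate arrays lay below both. CREB3 fell by 0.28 ± 0.05 with mevalonate added (adjusted p = 0.0101), while simvastatin minus DMSO was 0.10 ± 0.05 (adjusted p = 0.270). The remaining CREB/ATF genes were not called, with log2 changes against DMSO of -0.04 for ATF2, a partner of JUN, 0.05 for CREB3L2, -0.02 for CREB3L1 and -0.11 for CREB3L3, all membrane-bound relatives of CREB except ATF2.

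**Figure D2:**
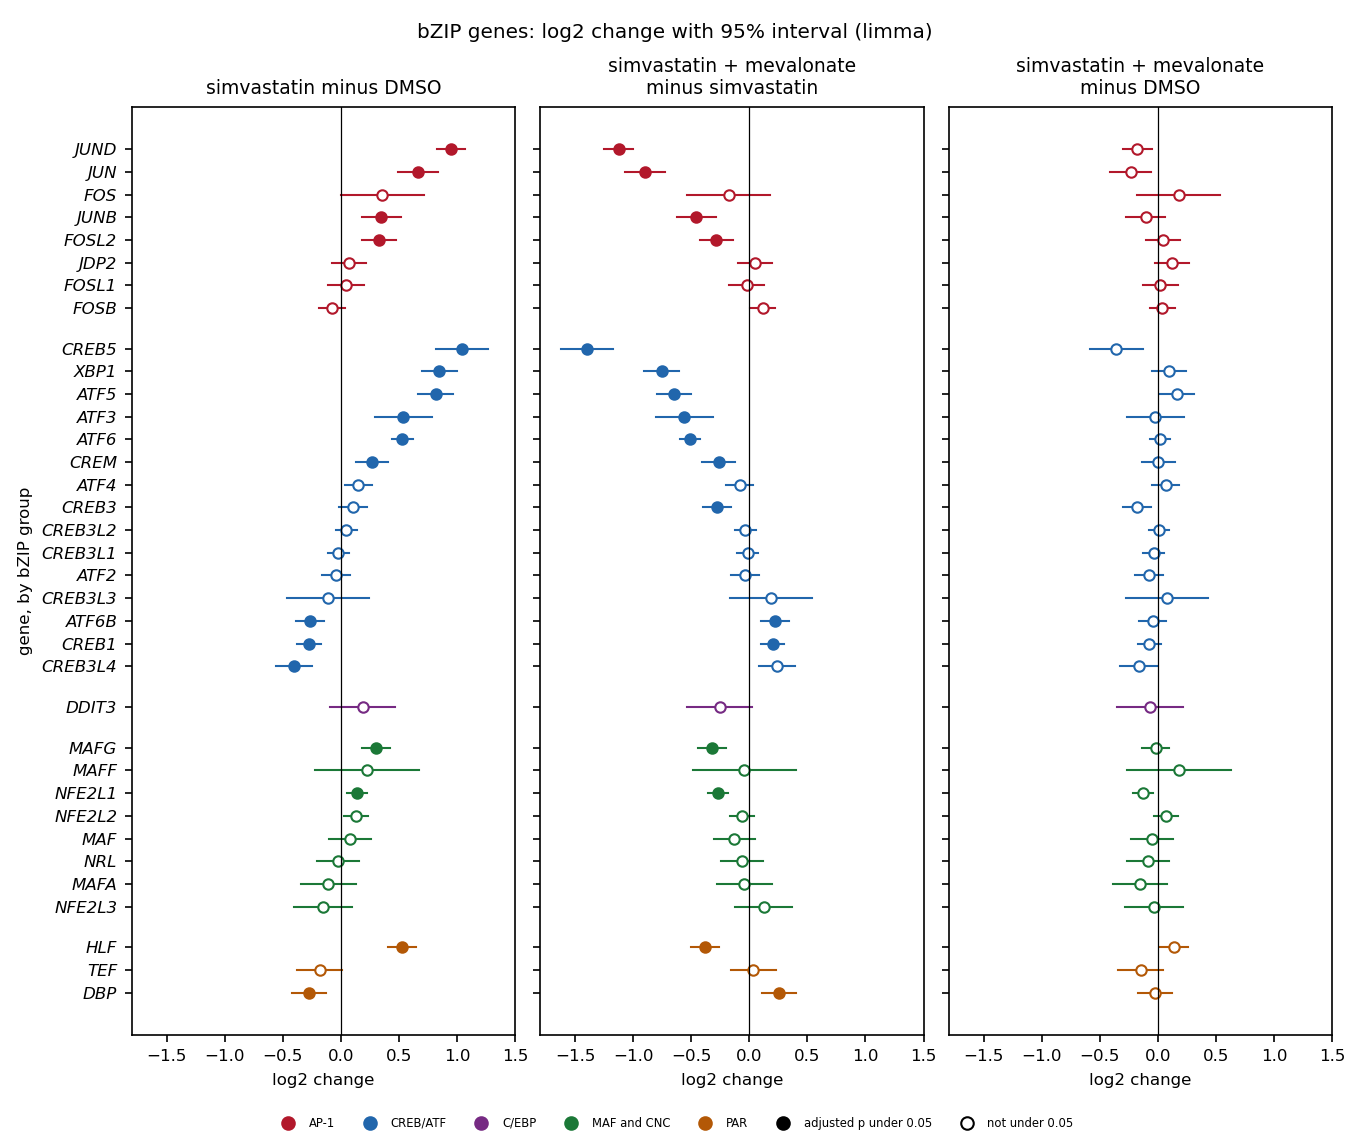
Log2 change (x axis) of each bZIP gene (y axis, by group) with its 95% interval from limma, for simvastatin minus DMSO, simvastatin plus mevalonate minus simvastatin, and simvastatin plus mevalonate minus DMSO. Filled points have an adjusted p under 0.05 and open points do not. Of the 35 points, 17 are filled in the left panel, 17 in the middle panel and 0 in the right panel.

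DDIT3, which encodes the stress factor CHOP and alone stands for the C/EBP group, had log2 values of 5.76, 5.76 and 5.31 with simvastatin plus mevalonate, 5.98, 5.72 and 5.90 with simvastatin, and 5.64, 5.68 and 5.72 with DMSO. The groups overlapped, and mevalonate replicate 3 was the lowest array. Its log2 change was 0.19 ± 0.12 against DMSO (95% interval -0.09 to 0.47, adjusted p = 0.398) and -0.25 ± 0.12 with mevalonate added (adjusted p = 0.256). A change of the size seen for JUN lies outside the first interval, and one of the size seen for FOSL2 lies inside it.

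In the MAF and CNC group MAFG and NFE2L1 changed. MAFG, a small MAF that pairs with NRF2, had log2 values of 6.39, 6.54 and 6.56 with simvastatin plus mevalonate, 6.84, 6.80 and 6.80 with simvastatin, and 6.51, 6.48 and 6.55 with DMSO. The simvastatin arrays were the highest and the other groups overlapped. MAFG rose by 0.30 ± 0.05 against DMSO (adjusted p = 0.00648) and fell by 0.32 ± 0.05 with mevalonate added (adjusted p = 0.00549). NFE2L1, a factor that raises proteasome genes, fell by 0.27 ± 0.04 with mevalonate added (adjusted p = 0.00286). Its rise against DMSO was small (0.14 ± 0.04, adjusted p = 0.0466) and was not called without any 1 of the 9 arrays (adjusted p from 0.0577 to 0.137 without an array, and from 0.00765 to 0.165 over all alternatives).

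NFE2L2 (NRF2), the oxidant-responsive factor, differed from DMSO by 0.13 ± 0.05 (adjusted p = 0.103), which was called with quantile normalization (0.17, adjusted p = 0.0474) and with the intensity trend (adjusted p = 0.0404, within 0.0404 to 0.266 over its alternatives). MAFF, another small MAF, was the most variable member, with 5.49, 5.34 and 5.63 with simvastatin plus mevalonate, 5.23, 5.59 and 5.77 with simvastatin, and 4.89, 5.56 and 5.47 with DMSO. All 3 of its groups overlapped (0.22 ± 0.19 against DMSO, adjusted p = 0.533). MAF (0.08), MAFA (-0.11), NRL (-0.03) and NFE2L3 (-0.15), which include large MAF factors of tissue differentiation and a CNC factor, were not called against DMSO. MAFA stood at 1 identical value on the 3 simvastatin arrays and on 1 mevalonate array. Other members shared values between arrays too, among them CREB3L1, JDP2, NRL and NFE2L3 on 4 arrays each, and the called genes FOSL2, DBP and ATF6B on 2 each. MAF and NFE2L3, with CREB3L1, lay on average below 5.187, the median of all probesets, where changes are poorly determined.

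Within the PAR group, HLF rose while DBP fell. HLF, a PAR factor first known from leukaemia fusions, had log2 values of 7.59, 7.58 and 7.55 with simvastatin plus mevalonate, 7.96, 8.03 and 7.88 with simvastatin, and 7.49, 7.45 and 7.36 with DMSO. The groups did not overlap, with the mevalonate arrays between the others. HLF was 1.44-fold higher with simvastatin than with DMSO (0.52 ± 0.05, adjusted p = 0.000368) and 1.31-fold lower with mevalonate added (-0.39 ± 0.05, adjusted p = 0.00219).

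DBP, a PAR factor driven directly by the clock, had log2 values of 6.86, 6.94 and 6.81 with simvastatin plus mevalonate, 6.70, 6.60 and 6.54 with simvastatin, and 6.89, 6.81 and 6.98 with DMSO. The simvastatin arrays were the lowest and the other groups overlapped. DBP fell by 0.28 ± 0.06 against DMSO (adjusted p = 0.0223) and rose by 0.25 ± 0.06 with mevalonate added (adjusted p = 0.0375). The fall was lost when DMSO replicate 1 or 3, or simvastatin replicate 2 or 3, was left out (adjusted p from 0.0103 to 0.0749 over the alternatives). The rise was lost without DMSO replicate 1, simvastatin replicate 2 or 3 or any 1 mevalonate array (adjusted p from 0.0181 to 0.117 over the alternatives). TEF, the third PAR factor, was not called (-0.18 ± 0.08 against DMSO, adjusted p = 0.217).

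**Figure D3:**
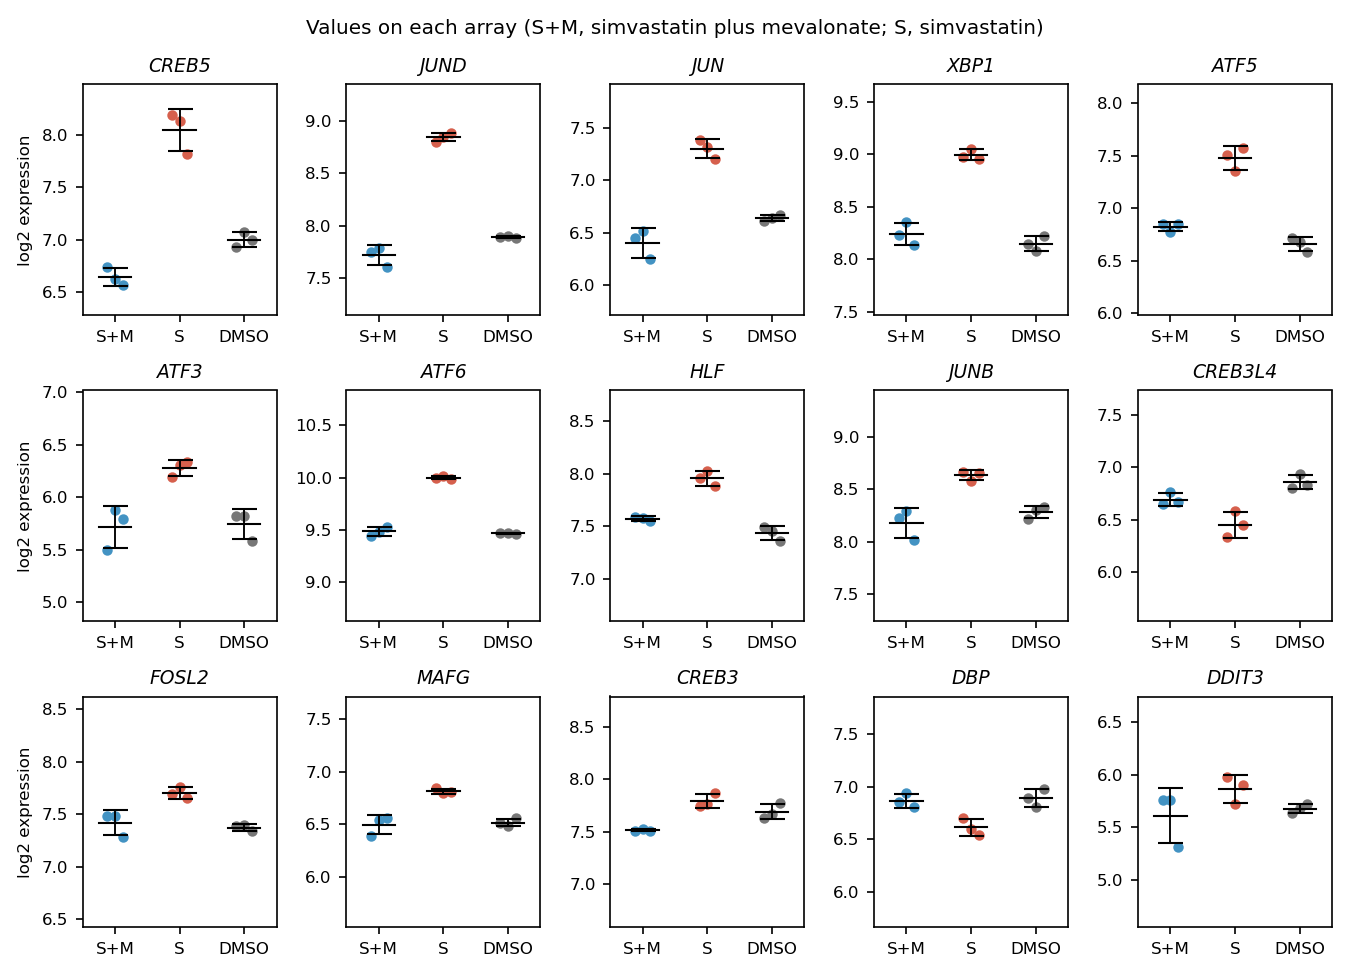
Log2 expression (y axis, a window of equal height in each panel that does not start at 0) of 15 bZIP genes on each array, with the mean as a horizontal line and the SD as an error bar. Points are the 3 arrays of simvastatin plus mevalonate (S+M), simvastatin (S) and DMSO. For JUND, JUN, CREB5, CREB3 and CREB3L4 the S+M points lie below the DMSO points, and for ATF5 and HLF above them.

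Simvastatin plus mevalonate was compared with DMSO to see what difference remained once mevalonate was supplied. None of the 35 genes was called (limma, 0 of 35, 8 at an unadjusted p under 0.05), where 0.0739% of all genes were called, 11 of 14884 (0.0336% higher and 0.0403% lower). The share with an unadjusted p under 0.05 was 22.9% of the bZIP genes, against 11% of all genes. Arrays of these groups did not overlap for 9 bZIP genes, where the share over all genes is 16.5%.

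The largest of these differences was that of CREB5, which was 0.36 ± 0.10 lower than with DMSO on the log2 scale (difference -0.36, 95% interval -0.58 to -0.13, adjusted p = 0.252). JUN (-0.23 ± 0.08, interval -0.41 to -0.06, adjusted p = 0.321) and JUND (-0.18 ± 0.05, interval -0.30 to -0.05, adjusted p = 0.286) also lay below DMSO on all 3 mevalonate arrays. CREB3 (-0.18 ± 0.05, adjusted p = 0.276), CREB3L4 (-0.16 ± 0.07, adjusted p = 0.433) and NFE2L1 (-0.13 ± 0.04, adjusted p = 0.285) did so too. On the other side FOS (0.18 ± 0.16, adjusted p = 0.724), ATF5 (0.17 ± 0.06, interval 0.02 to 0.31, adjusted p = 0.405) and HLF (0.14 ± 0.05, interval 0.02 to 0.26, adjusted p = 0.402) lay above DMSO. For XBP1 the difference was 0.09 (interval -0.05 to 0.24), for ATF6 0.02 (-0.07 to 0.11) and for ATF3 -0.02 (-0.27 to 0.22). None of these differences passed the threshold, so they are given as values.

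Promoter windows were found for 32 of the 35 genes in the RefSeq table, 55 windows in all, and ATF2, FOSL1 and MAFA had none. The shares of all genes given here are over the 27305 RefSeq genes with a window, not the named genes of the array. A gene with more windows has more chances of a match, and the bZIP genes had more windows per gene. In the 250 bases upstream, on both strands, the core TGACG of the cyclic AMP response element occurred in 20 of the 55 windows (18 of 32 genes), against 21.2% of all 35116 windows and 24.9% of all genes. The full element TGACGTCA, which contains that core, occurred in windows of 5 genes, CREB3L2, CREM, JUND, MAF and MAFF. It was found for 2.03% of all genes and in 1.65% of all windows. The AP-1 site TGACTCA was present for ATF5, CREB5 and DDIT3 (5.19% of all genes, 4.2% of all windows). The JUN-type site TGACATCA was present for ATF3, CREM and JUN (2.91% of genes, 2.37% of windows). The composite site TGATGNAA was present for ATF3, CREB5 and JDP2 (3.89% of genes, 3.14% of windows). The antioxidant response element TGACNNNGC was present for CREM, JUND and MAFF (13.2% of genes, 10.9% of windows). The endoplasmic reticulum stress element was present for XBP1 (0.0916% of genes, 0.074% of windows). The PAR site TTACGTAA (0.105% of windows) and the CArG box of serum response factor (1.16% of windows) were in none of the 55. Sites that read the same on both strands were counted once. Members that rose (JUND, CREB5) and members that were not called (JDP2, MAF) are both among those with matches, and a match in letters shows no binding.

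Genes known to act downstream, upstream or beside the bZIP factors were counted from lists that were written down with earlier results of these data known. Over all named genes, 5.98% rose and 7.38% fell with simvastatin against DMSO. Of 21 measured genes under ATF4, CHOP and C/EBP, 17 rose and 0 fell against DMSO, with a median log2 change of 0.55, where the median over all genes was 0.01. When any 1 array was left out, 14 to 16 rose and 0 fell. With mevalonate added 15 fell (11 to 15 when any 1 array was left out) and 1 rose, the lipoprotein receptor gene VLDLR. The rise of VLDLR was not called without any array but DMSO replicate 2 or mevalonate replicate 3 (adjusted p from 0.00632 to 0.130 over the alternatives). The largest were SESN2 (1.20 ± 0.14 against DMSO, -0.95 ± 0.14 with mevalonate added) and DDIT4 (1.12 ± 0.07 and -0.60 ± 0.07), both brakes on the growth kinase mTORC1, ASNS (1.19 ± 0.06 and -0.63 ± 0.06), the asparagine synthetase, and TRIB3 (1.11 ± 0.12 and -1.11 ± 0.12), a pseudokinase that binds ATF4. Between simvastatin plus mevalonate and DMSO, ASNS (0.57, adjusted p = 0.0183) and PSAT1 of serine synthesis (0.44, adjusted p = 0.0176) were called higher, calls lost without any 1 array of those groups (adjusted p from 0.000462 to 0.115 and from 6.87e-05 to 0.0904 over the alternatives). The median log2 difference of the 21 genes in that comparison was 0.26, against 0.0004 over all genes, with 19 positive and 2 negative. An unadjusted p under 0.05 (limma) was reached by 66.7% of them, against 11% of all genes. Arrays of these groups did not overlap for 14 of them, where the share over all genes is 16.5%. The 4 measured genes of the eIF2 alpha kinases and phosphatase subunits were all kinases, which switch ATF4 translation on. Of these, EIF2AK3 (PERK) rose by 0.41 ± 0.06 against DMSO and fell by 0.57 ± 0.06 with mevalonate added. EIF2AK2 rose by 0.15 ± 0.04 against DMSO, a call that was kept without mevalonate replicate 2 and lost without any other array (adjusted p from 0.00199 to 0.142 over the alternatives).

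Among 10 measured genes under XBP1 and ATF6, 3 rose against DMSO and the others were not called. They were HYOU1, a chaperone (0.36 ± 0.04), SEL1L, of protein disposal from the endoplasmic reticulum (0.33 ± 0.06), and MANF, a secreted stress factor (0.15 ± 0.04). With mevalonate added, HYOU1 (-0.21 ± 0.04), SEL1L (-0.29 ± 0.06) and MANF (-0.19 ± 0.04) fell. Averaging the probesets of HYOU1 ended both of its calls (adjusted p = 0.0668 and 0.360, each the highest over its alternatives, which reached down to 8.82e-06 and 0.000579). The rise of MANF was called without mevalonate replicate 1 or 2 and lost without any other array (adjusted p from 0.0134 to 0.130 over the alternatives). MANF stood at 1 identical value, 6.4727, on the 3 DMSO arrays and on mevalonate replicate 2, so its DMSO arrays showed no spread. With mevalonate added, the fall of MANF was lost without mevalonate replicate 1 (0.0517) and that of SEL1L without simvastatin replicate 1 (0.0605) or 2 (0.0536) or mevalonate replicate 2 (0.0621), within 0.00448 to 0.0652 for MANF and 0.0034 to 0.0633 for SEL1L.

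Most genes under AP-1 were not called. Of 14 measured, 1 rose and 2 fell against DMSO, 21.4% of them against 13.4% of all genes. The median log2 change was 0.08, with 12 changes positive and 2 negative. Of those not called, the matrix protease genes MMP1, MMP10 and MMP13 lay below 5.187, the median of all probesets, on all 9 arrays. Changes are poorly determined there. The proteoglycan gene DCN fell by 0.98 ± 0.06 and the chemokine gene CCL2 by 0.72 ± 0.13, and TIMP1, an inhibitor of matrix proteases, rose by 0.38 ± 0.08, a call lost without DMSO replicate 3 or simvastatin replicate 3 (adjusted p = 0.0583 each, within 0.00402 to 0.0583 over its alternatives). The call of TIMP1 was also lost with only the groups compared (0.0517) and with adjustment over all probesets (0.0507). DCN is also one of the mesenchymal markers below. With mevalonate added DCN rose by 0.58 ± 0.06 and was the only one called (2 rose without simvastatin replicate 1). Of 12 genes under CREB, 2 rose and 6 fell against DMSO. When any 1 array was left out, 2 rose and 4 to 5 fell. The neuropeptide precursor VGF (1.09 ± 0.06) and the clock gene PER1 (0.49 ± 0.08) rose, and the granule proteins CHGA (-0.70 ± 0.05) and CHGB (-0.41 ± 0.05) were among those that fell. With mevalonate added VGF (-0.92 ± 0.06) and PER1 (-0.57 ± 0.08) fell, and CHGA (0.62 ± 0.05) and the tyrosine hydroxylase gene TH (0.30 ± 0.04) were among 4 that rose (2 without mevalonate replicate 3). CHGA, CHGB and TH are also among the neuroblast markers below. Among 10 genes under NRF2 and small MAF, 4 rose against DMSO, the pentose phosphate enzyme TKT (0.35 ± 0.04), TXNRD1 (0.31 ± 0.05) and GSR (0.18 ± 0.05), which keep thiols reduced, and the autophagy receptor SQSTM1 (0.29 ± 0.07), and 0 fell. The call of GSR was lost without any 1 of the 9 arrays (adjusted p from 0.0606 to 0.133 without an array, and from 0.00561 to 0.134 over all alternatives), so at most 3 genes rose whichever array was left out. The rise of SQSTM1 was also lost, and the count was 2, with any 1 of DMSO replicates 1 and 2 and simvastatin replicates 2 and 3 left out. That rise was called under 10 of its 17 alternatives (adjusted p from 0.0079 to 0.0833). Leaving out simvastatin replicate 1 gave 3 higher and 1 lower. With mevalonate added SQSTM1 fell (-0.29 ± 0.07) and the peroxidase gene PRDX1 rose (0.17 ± 0.04), calls lost without most single arrays (6 and 7 of the 9, adjusted p from 0.00999 to 0.102 and from 0.00167 to 0.124 over the alternatives).

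**Figure D4:**
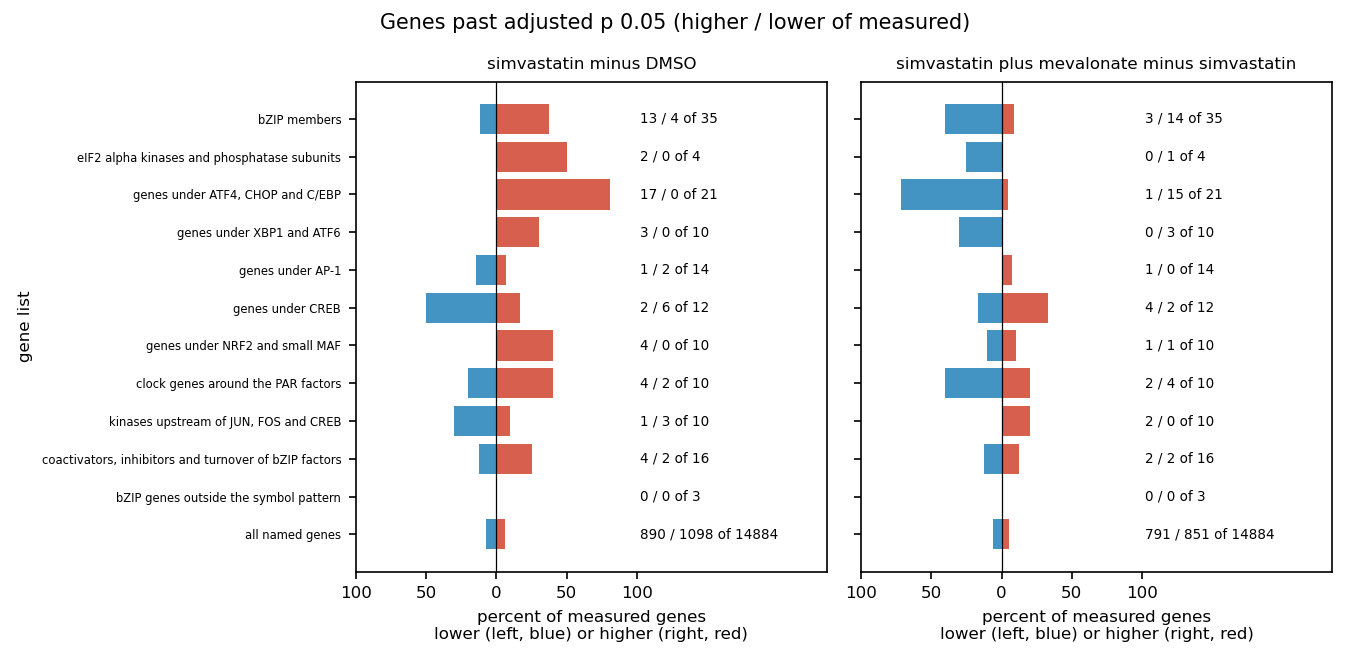
Percent of measured genes called higher (red, right) and lower (blue, left) at an adjusted p under 0.05 in the bZIP genes, in each list of related genes and in all named genes, for simvastatin minus DMSO and simvastatin plus mevalonate minus simvastatin. Numbers give higher / lower of measured. The ATF4, CHOP and C/EBP list holds 17 higher genes of 21 in the left panel, and the AP-1 list 1 of 14. When any 1 array was left out, these counts were 14 to 16 and 0 to 1.

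Among 10 clock genes around the PAR factors, 4 rose and 2 fell against DMSO. PER1, given above, and CRY1 (0.38 ± 0.05), repressors of the clock, rose, and the activator BMAL1 (-0.60 ± 0.11) and the nuclear receptor RORB (-0.49 ± 0.05) fell. With mevalonate added RORB (0.50 ± 0.05) and BMAL1 (0.49 ± 0.11) rose, and PER1 and CRY1 (-0.49 ± 0.05) were among the 4 that fell. Only 2 clock genes rose against DMSO without DMSO replicate 2 or simvastatin replicate 2. The rise of BMAL1 was lost without simvastatin replicate 2 (adjusted p = 0.0658) or 3 (0.0676) or mevalonate replicate 2 (0.0641), within 0.0123 to 0.0676, and its mean of 4.72 with simvastatin lay below the median of all probesets. That rise was also lost with the replicate block (0.0546) and with adjustment over all probesets (0.0584).

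Of 10 kinases upstream of JUN, FOS and CREB, 1 rose and 3 fell against DMSO, and 2 rose with mevalonate added. MAP2K6, which activates p38, fell by 1.95 ± 0.10 and rose by 1.48 ± 0.10 with mevalonate added, and CAMK4, a calcium-dependent kinase of CREB, fell by 0.54 ± 0.04 and rose by 0.30 ± 0.04. The calls of GSK3B (-0.14 ± 0.04) and MAPK3 (0.17 ± 0.05) against DMSO were lost without any single array, except for MAPK3 without simvastatin replicate 2 (adjusted p from 0.00137 to 0.154 and from 0.0197 to 0.138 over the alternatives). Of 16 coactivators, inhibitors and turnover factors, 4 rose and 2 fell against DMSO. ERN1, the kinase and nuclease that splices XBP1 RNA, rose by 0.44 ± 0.06, and TRIB2, a pseudokinase that directs C/EBP proteins to degradation, by 0.40 ± 0.05. ATF7IP, a chromatin partner of ATF7, fell by 0.60 ± 0.05 and DET1, part of a ligase that degrades JUN, by 0.23 ± 0.04. With mevalonate added TRIB2 (-0.64 ± 0.05) and ERN1 (-0.42 ± 0.06) fell, and ATF7IP (0.48 ± 0.05) and DET1 (0.21 ± 0.04) rose, the last a call lost without mevalonate replicate 1 (0.0630) or 2 (0.0574), within 0.00214 to 0.0723. The count that rose against DMSO was 2 when DMSO replicate 1, DMSO replicate 3 or simvastatin replicate 3 was left out. The bZIP genes outside the symbol pattern, CREBZF, CREBL2 and CREBRF, were not called (0 of 3, 1 at an unadjusted p under 0.05), with changes against DMSO of -0.02, -0.02 and -0.12.

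MAF1, the RNA polymerase III repressor caught by the pattern, differed from DMSO by 0.14 ± 0.06 with simvastatin (adjusted p = 0.163) and fell by 0.24 ± 0.06 with mevalonate added (adjusted p = 0.0241). That call was lost without simvastatin replicate 2 or mevalonate replicate 2 or 3 (adjusted p from 0.0108 to 0.0806 over the alternatives). Arrays of 1 group correlated across all named genes with r from 0.994 to 0.996, and simvastatin arrays with DMSO arrays at 0.990 to 0.992. As a check of the labelled cell type, all 14 measured markers of sympathetic neuroblasts (HAND2, GATA3, TH and STMN2 among them) lay above the median of all probesets, as did 9 of 10 mesenchymal, 3 of 4 Schwann and glial, 0 of 2 blood and 1 of 4 endothelial markers, and 10164 of the 14884 named genes. That measure alone therefore does not tell the cell types apart. The mean of the neuroblast markers per array was 9.60 to 9.66 with simvastatin plus mevalonate, 9.38 to 9.40 with simvastatin and 9.72 to 9.73 with DMSO, and 8 of the 14 fell with simvastatin, 0 rising. Of 10 mesenchymal markers 4 fell and 1 rose. The rise was lost without DMSO replicate 1 or 2, simvastatin replicate 1 or 3, or mevalonate replicate 1 or 3. The mean of the mesenchymal markers per array was 7.07 to 7.09 with simvastatin plus mevalonate, 6.88 to 6.97 with simvastatin and 7.18 to 7.19 with DMSO. None of the 4 Schwann and glial, 2 blood and 4 endothelial markers measured was called against DMSO (limma, 1 blood marker at an unadjusted p under 0.05, called without DMSO replicate 1). The part of these marker shifts in the bZIP changes was not tested, and in RNA from whole cultures fewer cells of a type and less RNA per cell cannot be told apart.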

How the data were processed

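RNA of 9 SMS-KCNR samples was measured on 1-colour Affymetrix arrays. The labels' protocols name a whole-transcript labelling kit and biotin. The authors deposited log2 values, 1 per probeset and array (53617 probesets), with array medians that lie close together, from 5.172 to 5.211. GCRMA and HOMER are named, without versions, per the submitters' processing notes. Which steps were run, and the genome build, are not given in the sources used here. Such normalization can hide a shift of all genes and compress changes of dim ones. Precision is limited by having 3 arrays a group.

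Of the probesets, 16098 carry 1 symbol in the platform annotation, 0 carry several and the rest have none. All were matched to RefSeq by Entrez identifier (14884 genes), with 0 symbols changed. Groups come from the treatment labels. All 9 arrays entered 1 fit in R 4.3.3 with limma 3.58.1 (lmFit, eBayes, 6 residual and 2.39 prior degrees of freedom), and p-values were adjusted by Benjamini-Hochberg over all 14884 genes, with a threshold of 0.05. Errors are limma's standard errors unless called SD, and folds are 2 to the power of the log2 change. The procedure was tested on simulated data. Members and lists were chosen with earlier results of these data known. Every member is named. Values on all arrays are given for the 14 members with the largest called change and for DDIT3, the 1 gene of a group these leave out, and also for ATF4, FOS and MAFF, chosen after their values were seen. Of each of the 10 related lists, up to 4 called genes with the largest change per comparison are named. VLDLR, CREBZF, CREBL2, CREBRF, CALR, CANX, MMP1, MMP10 and MMP13 were named after their values were seen. Promoters are RefSeq windows (GRCh38.p14), and each one printed is the first of its gene that holds a marked site. Alternatives were quantile normalization, median centring, an intensity trend with robust variance, only the groups compared, the mean over probesets, a filter on dim genes, adjustment over all probesets, a replicate block and leaving out each array. Same-numbered arrays did not deviate together (r from -0.0806 to 0.0505), so the numbers were not taken as pairs.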

Additional observations from a re-analysis of the deposited data

How the results depend on the processing

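Under the 17 alternatives, the number of bZIP genes called stayed within 1.5 times its main value in all 3 comparisons. Leaving out each array in turn gave 13 to 16 called genes for simvastatin minus DMSO, 13 to 17 for simvastatin plus mevalonate minus simvastatin, and 0 throughout for simvastatin plus mevalonate minus DMSO. With the replicate number as a block, 15, 14 and 0 were called. Arrays with the same number did not deviate together, and 1 of 9 arrays correlated best with its own number. Adjustment over all probesets gave 14, 12 and 0.

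Over the 108 log2 changes of single genes (the 35 bZIP genes and MAF1 in 3 comparisons), 68 calls were lost and 8 gained across the alternatives. The sign turned for 24 of these changes, 0 of them called: 6 for simvastatin minus DMSO, 7 for simvastatin plus mevalonate minus simvastatin and 11 for simvastatin plus mevalonate minus DMSO. With single arrays left out, simvastatin minus DMSO ran from -0.0346 to 0.0046 for CREB3L1, -0.0298 to 0.1084 for FOSL1, -0.0484 to 0.0099 for NRL, -0.2366 to 0.037 for CREB3L3 and -0.0883 to 0.0022 for ATF2, and FOSB turned to 0.0416 with the mean over probesets. Simvastatin plus mevalonate minus simvastatin ran from -0.0238 to 0.0007 for CREB3L1, -0.0864 to 0.0518 for FOSL1, -0.0051 to 0.0754 for JDP2, -0.1064 to 0.0338 for NRL, -0.1951 to 0.0796 for MAFF, -0.0144 to 0.0755 for TEF and -0.0952 to 0.0282 for MAFA. Simvastatin plus mevalonate minus DMSO ran from -0.1035 to 0.0904 for ATF3, -0.0040 to 0.0391 for ATF6, -0.0509 to 0.0321 for MAFG, -0.067 to 0.0192 for DBP, -0.1423 to 0.0836 for DDIT3 and -0.0281 to 0.0439 for CREM. It ran from -0.134 to 0.0062 for NRL, -0.0497 to 0.1942 for CREB3L3, -0.025 to 0.308 for MAFF, -0.131 to 0.0624 for NFE2L3 and -0.0022 to 0.0232 for CREB3L2. Median centring turned CREM to -0.0138 and CREB3L2 to -0.0067, and quantile normalization CREM to -0.0071. The cause was not tested.

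Over all genes, adjustment over all probesets left 1177 calls in place of 1988 for simvastatin minus DMSO and 922 in place of 1642 with mevalonate added, since more features were tested. The 11 calls for simvastatin plus mevalonate minus DMSO became 223 with trend and robust variance, 105 with the filter on dim genes, 1 over all probesets, and 0 with the replicate block or with only the groups compared. They became 0 with any 1 DMSO array or mevalonate replicate 1 left out, 2 without mevalonate replicate 2 and 3 without mevalonate replicate 3.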

Other observations

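The sensors that start the 3 arms of the unfolded protein response are ERN1, EIF2AK3 and ATF6, which were set side by side after their values were seen. ERN1 had log2 values of 6.03, 6.18 and 6.06 with simvastatin plus mevalonate, 6.56, 6.46 and 6.52 with simvastatin, and 6.10, 5.97 and 6.16 with DMSO. EIF2AK3 had 7.31, 7.43 and 7.39 with simvastatin plus mevalonate, 7.86, 8.07 and 7.90 with simvastatin, and 7.54, 7.54 and 7.54 with DMSO. For both, as for ATF6, the 3 simvastatin arrays lay above all others. Of the genes under XBP1 and ATF6 that were not called, CALR, an endoplasmic reticulum chaperone, had a log2 difference of -0.03 ± 0.04 against DMSO, and CANX, another, one of 0.04 ± 0.04.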
